A study of Mus musculus with 9 samples.

Results

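The 10 genes described here encode the machinery that attaches the ubiquitin-like modifier ISG15 to proteins and removes it, together with the interferon-inducible members and partner of the poly(ADP-ribose) polymerase (PARP) family. They were chosen by symbol as Isg15, Uba7, Ube2l6, Herc6, Usp18, Parp9, Dtx3l, Parp12, Parp14 and Zc3hav1, by a rule that reads no level. All 10 were found among the 36410 genes of the count table, and all 10 were among the 13508 genes that passed the filter on low counts and were tested.

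The mRNA was measured by RNA-seq in 3 mouse striatal cell lines with 3 libraries each. Control cells (STHdhQ7/Q7) carry Htt with 7 glutamine codons on both alleles. HD-het cells (STHdhQ7/Q111) carry 7 on 1 allele and 111 on the other, and HD-homo cells (STHdhQ111/Q111) carry 111 on both. The authors describe the lines as knock-in models and give WT embryos as the source of the control line. The lines are immortalized, come from the striatum of mouse embryos and are labelled C57/BL6, and the labels give no treatment. Since 1 line stands for each genotype, the effect of genotype cannot be told apart from that of the line. Nothing in the labels says that the libraries of a line came from separate cultures. The adjusted p values therefore measure the spread between these libraries, which may be technical.

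ISG15 is joined to lysines of target proteins by a cascade of an activating enzyme (UBA7), a conjugating enzyme (UBE2L6) and a ligase, which in mouse is mainly HERC6, and the protease USP18 takes it off again. USP18 also binds the type I interferon receptor and dampens its signal. PARP9, PARP12 and PARP14 belong to the family of ADP-ribosyltransferases, DTX3L is the E3 ubiquitin ligase that pairs with PARP9, and ZC3HAV1, also known as ZAP or PARP13, is a zinc finger protein that binds CpG-rich viral RNA and has no known ADP-ribosyltransferase activity. In most cell types these genes are at a low level until an interferon activates the transcription factor complex ISGF3. It binds a repeated GAAA element in promoters of interferon-inducible genes, though not every such promoter needs to hold it in the short form searched below.

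The libraries held 29507665 to 41197931 reads on genes, and 3 reads, taken as the smallest count that can show a gene, corresponded to between 0.0710 and 0.101 CPM (counts per megaread). This limit covers counting error only. Levels are normalized CPM (TMM), which do not correct for transcript length, given per library or as the mean ± SD over 3 libraries. The lines were compared by edgeR's quasi-likelihood test fitted to all 9 libraries, with Benjamini-Hochberg adjustment over the 13508 genes and a threshold of 0.05. The lines differ in much of their transcriptome, and the share of all tested genes that passed is given beside each count of members.

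The 10 genes lie on 5 chromosomes of GRCm38, with 4 of them on chromosome 6 and 3 on chromosome 16. Parp14 (chr16:35832874-35871544, minus strand), Dtx3l (chr16:35926511-35939151, minus strand) and Parp9 (chr16:35938470-35972605, plus strand) form a cluster of 139732 bases. The spans of Dtx3l and Parp9 overlap by 682 bases at their start sites, and 458 exonic bases are annotated on opposite strands, which is 9.40% of the exonic bases of Parp9 and 8.00% of those of Dtx3l. The setting for strand in the counting is not given in the sources used here, so reads in these bases could have been counted on either gene or on neither. Isg15 lies at chr4:156199424-156200818 on the minus strand, with 2 exons, a transcript of 756 nucleotides and 161 codons before the stop. Zc3hav1 (chr6:38305286-38354603) and Parp12 (chr6:39086410-39118349), both on the minus strand, are 731806 bases apart.

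RefSeq promoters were matched for 7 members, and those of Usp18, Parp9 and Parp14 were not analysed here. They were searched on both strands, over the 250 bases before the start, for the letters GAAANNGAAA, a short form of the interferon-stimulated response element. Of the 7, the promoter of Isg15 matched, and it held 3 overlapping copies between 78 and 57 bases before the start, GAAAAGGAAA, GAAACCGAAA and GAAACAGAAA. The letters are found in 2.98% of the 32851 promoters searched. The shorter GAAANNGAA, which lies within the first motif, occurs in 7.13% of promoters and again matched Isg15 of the 7. The gamma-activated sequence TTCNNNGAA occurs in 7.02% of promoters and in none of the 7. A match of letters is a description and not a bound site. The 120 bases before the start are shown for 3 members with different patterns across the lines: Isg15, which was higher in both HD lines, Ube2l6, which was highest in HD-het cells, and Zc3hav1, which was higher in HD-homo cells than in the other lines. Capitals mark the GAAANNGAAA matches, and sequences are RefSeq on GRCm38.p6, 5′ to 3′ on the strand of the gene (Isg15 chr4:156200819-156200938, minus strand; Ube2l6 chr2:84798708-84798827, plus strand; Zc3hav1 chr6:38354604-38354723, minus strand).
Isg15: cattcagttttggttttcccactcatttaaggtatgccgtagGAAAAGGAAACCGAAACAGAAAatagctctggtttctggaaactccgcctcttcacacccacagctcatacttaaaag
Ube2l6: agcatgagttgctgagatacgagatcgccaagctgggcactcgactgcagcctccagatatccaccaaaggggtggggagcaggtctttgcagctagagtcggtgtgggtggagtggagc
Zc3hav1: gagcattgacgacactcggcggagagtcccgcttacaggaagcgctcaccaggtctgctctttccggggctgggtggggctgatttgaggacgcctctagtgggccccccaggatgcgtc

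All 10 members were higher in HD-homo cells than in control cells, and in each of them the lowest HD-homo library lay above the highest control library. Among all tested genes, 29.6% were higher, 28.9% were lower, and 32.7% were higher with no overlap between the libraries. In HD-het cells, 7 of the 10 were higher than in control cells and 0 were lower, against 33.8% of all tested genes higher and 31.4% lower. The libraries lay higher without overlap for 8 members, against 38.7% of all tested genes. For Usp18, which is among the 8, this rested on the TMM factors alone. There 1 library of each of these lines had 4 reads, and the HD-het library had the larger total. Between HD-homo and HD-het cells, 7 were higher in HD-homo cells, 1 (Ube2l6) was lower, and Uba7 and Herc6 did not pass the test, against 36.0% of all tested genes higher and 35.6% lower. Here the libraries of 8 members lay higher in HD-homo cells without overlap, against 36.5% of all tested genes. The median log2 fold change of the 10 was 1.74 in HD-homo and 0.96 in HD-het cells against control cells. Between the HD lines it was 1.16. The median of all tested genes was 0.00772, 0.0251 and 0.00169 in the same order. Each pair of these comparisons shares the libraries of a line.

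**Figure D1:**
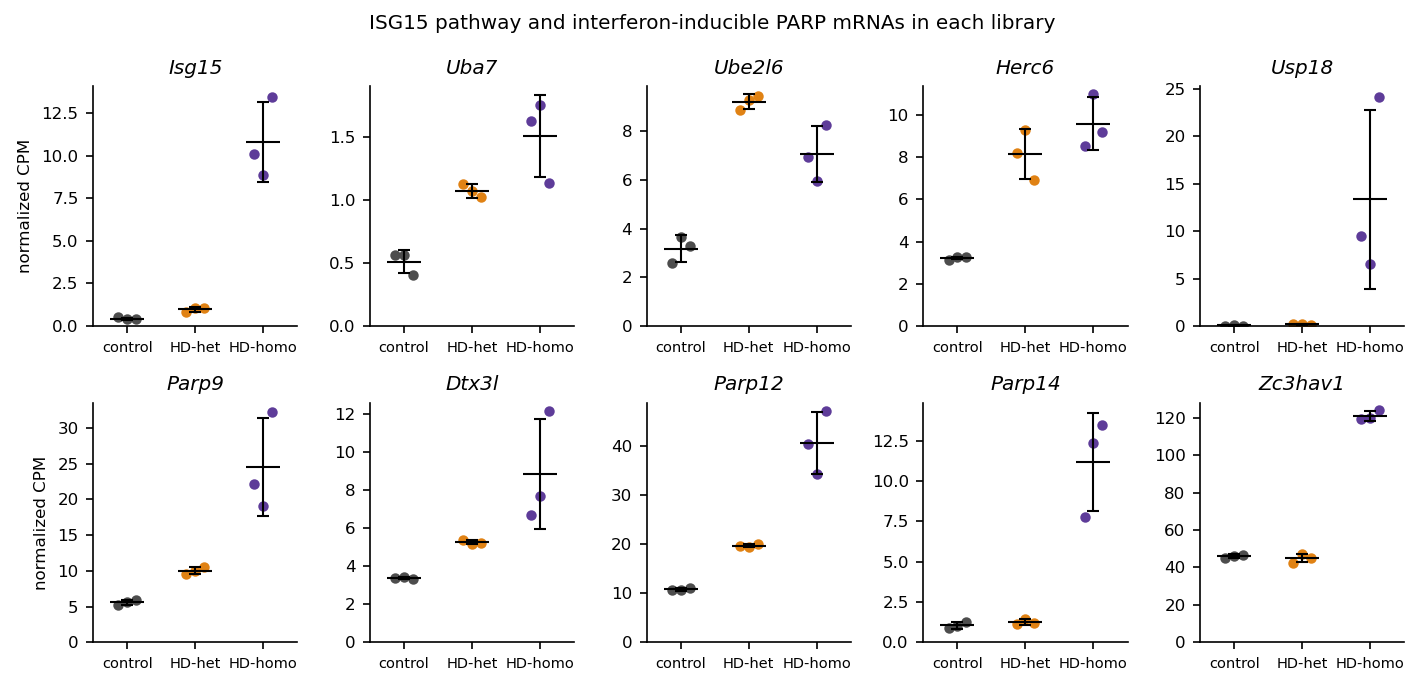
Normalized CPM (linear vertical axis from 0, scaled separately for each gene) of the 10 genes in each library of control, HD-het and HD-homo cells. Points are libraries, long bars are means and short bars mark ± 1 SD (n = 3). For Isg15, Usp18, Parp14 and Zc3hav1 the HD-het points sit near the control points and the HD-homo points far above. Ube2l6 and Herc6 are raised in both HD lines, and Ube2l6 is highest in HD-het cells.

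Isg15, the modifier itself, rose in both HD lines and far more in HD-homo cells. The control libraries had 0.498, 0.387 and 0.406 CPM, from 12 to 16 reads. The HD-het libraries had 0.818, 1.07 and 1.05 CPM, and the HD-homo libraries had 10.1, 8.88 and 13.4 CPM, from 329 to 451 reads. No library of one line reached into the range of another. In HD-homo cells Isg15 was 25.1-fold higher than in control cells (log2 fold change 4.64, SE 0.221, 95% interval 4.15 to 5.12, adjusted p = 1.37e-08 with edgeR), which placed it at rank 265 among all tested genes ordered by increase. The increase in HD-het cells was 2.27-fold (adjusted p = 0.00317 with edgeR). In bulk RNA, a larger number of cells with Isg15 mRNA and a higher level per cell cannot be told apart.

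Uba7, the E1 enzyme that activates ISG15, was at a low level in all lines. It had 0.560, 0.565 and 0.406 CPM in control cells, 1.13, 1.07 and 1.02 CPM in HD-het cells and 1.62, 1.75 and 1.13 CPM in HD-homo cells. The control libraries lay below all others, and the lowest HD-homo library was close to the highest HD-het library. Uba7 rose 2.95-fold in HD-homo (adjusted p = 0.000165) and 2.10-fold in HD-het cells (adjusted p = 0.00266) against control cells with edgeR. HD-homo cells had 1.40-fold the level of HD-het cells (95% interval of the log2 fold change 0.04 to 0.95, adjusted p = 0.0507), and 5 alternatives brought this past the threshold, with an adjusted p of 0.00871 when HD-homo replicate 3 was left out.

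Ube2l6, the E2 enzyme that carries ISG15 to the ligase, was highest in HD-het cells. It had 2.58, 3.66 and 3.28 CPM in control cells, 8.88, 9.30 and 9.46 CPM in HD-het cells and 6.96, 5.97 and 8.26 CPM in HD-homo cells. The 3 ranges did not overlap, and the order of the HD lines was the reverse of that of Isg15. Ube2l6 rose 2.90-fold in HD-het (adjusted p = 5.94e-06) and 2.23-fold in HD-homo cells (adjusted p = 6.84e-05) against control cells with edgeR. HD-homo cells had 0.766 times the level of HD-het cells (log2 fold change -0.39, SE 0.142, adjusted p = 0.0287). That difference did not pass the threshold when any of HD-het replicates 1, 2 and 3 or HD-homo replicates 1 and 2 was left out, with adjusted p values of 0.0511, 0.0671, 0.0650, 0.0642 and 0.100.

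Herc6, a HECT-type E3 ligase, rose in both HD lines to similar levels. It had 3.14, 3.27 and 3.25 CPM in control cells, 8.21, 9.30 and 6.92 CPM in HD-het cells and 8.55, 10.99 and 9.22 CPM in HD-homo cells. The HD lines overlapped each other and lay above the control cells. Herc6 was 2.98-fold higher in HD-homo (adjusted p = 2.49e-06) and 2.53-fold higher in HD-het cells (adjusted p = 9.70e-06) than in control cells with edgeR. Between the HD lines the log2 difference was 0.24 with a 95% interval from -0.05 to 0.52 (adjusted p = 0.119), which does not show that they are alike. Of the 50-base words of Herc6 exons, 12.5% occur in other genes, which is the largest share among the 10 and leaves its counts less certain.

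Usp18, the ISG15 protease, was nearly undetectable in control cells and among the most increased genes in HD-homo cells. The control libraries had 1, 4 and 0 reads and the HD-het libraries 7, 7 and 4, against 309, 275 and 808 in the HD-homo libraries. The HD-homo levels were 9.47, 6.51 and 24.1 CPM, so that replicate 3 was 3.70 times as high as replicate 2. The ratio of depth-scaled counts between HD-homo and control cells was 245, with an interval for counting error from 105 to 756, since the control cells gave 5 reads in all. The fitted log2 fold change was 7.89 (SE 0.759, adjusted p = 4.62e-06 with edgeR), at rank 76 by increase. It ranged from 6.91 with a prior count of 2 to 9.39 without control replicate 2, and was 7.15 without HD-homo replicate 3 (adjusted p = 6.14e-08). Against HD-het cells it was 6.20 in HD-homo cells (adjusted p = 4.18e-06), and 5.46 without HD-homo replicate 3. In HD-het cells the ratio to control cells was 3.38 with an interval from 1.21 to 11.6 for counting error, the highest control and the lowest HD-het library had the same number of reads, and the difference did not pass the test (log2 fold change 1.69, SE 1.54, adjusted p = 0.354).

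Relative to each other, the ISG15 genes shifted in HD-homo cells, while the ratios given here overlapped between HD-het and control cells. For every read on Ube2l6 there were 0.193, 0.106 and 0.124 reads on Isg15 in control cells and 0.0921, 0.115 and 0.111 in HD-het cells, against 1.45, 1.49 and 1.63 in HD-homo cells. The modifier thus moved from well under the reads of its E2 to above them in each HD-homo library. Usp18 had 0.939, 0.733 and 1.79 reads per Isg15 read in the HD-homo libraries and between 0 and 0.308 in the other libraries. Herc6 and Ube2l6 kept closer to each other, with between 0.731 and 1.84 Herc6 reads per Ube2l6 read over the 9 libraries. These ratios are of reads and are not corrected for length.

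Parp9 and its partner Dtx3l rose together in order of the lines, and Parp9 rose by more. Parp9, a macrodomain protein, had 5.29, 5.65 and 5.95 CPM in control cells, 9.53, 10.03 and 10.5 CPM in HD-het cells and 22.2, 19.1 and 32.2 CPM in HD-homo cells. Dtx3l had 3.36, 3.45 and 3.31 CPM in control cells, 5.39, 5.18 and 5.21 CPM in HD-het cells and 6.68, 7.70 and 12.1 CPM in HD-homo cells. For both genes the 3 lines did not overlap, and HD-homo replicate 3 was the highest library. In HD-homo cells Parp9 was 4.35-fold higher (SE 0.173 on the log2 scale, adjusted p = 1.17e-06 with edgeR) and Dtx3l 2.62-fold higher (SE 0.197, adjusted p = 0.000107 with edgeR) than in control cells. In HD-het cells the increases were 1.78-fold for Parp9 (adjusted p = 0.00156 with edgeR) and 1.56-fold for Dtx3l (adjusted p = 0.0161 with edgeR). Parp9 had 1.57, 1.64 and 1.80 reads per Dtx3l read in control cells, 1.77, 1.94 and 2.02 in HD-het cells and 3.32, 2.48 and 2.65 in HD-homo cells. The difference between the increases of both genes was not tested.

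Parp12, a CCCH zinc finger ADP-ribosyltransferase, rose in steps from control to HD-het to HD-homo cells. It had 10.6, 10.7 and 11.2 CPM in control cells, 19.6, 19.4 and 19.98 CPM in HD-het cells and 40.3, 34.2 and 46.9 CPM in HD-homo cells. No ranges overlapped. The log2 fold change was 0.86 in HD-het (SE 0.107, adjusted p = 3.05e-05) and 1.90 in HD-homo cells (SE 0.106, adjusted p = 4.75e-08) against control cells, and 1.04 between the HD lines (SE 0.101, adjusted p = 3.23e-06) with edgeR.

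Parp14, a large macrodomain ADP-ribosyltransferase, was higher in HD-homo cells, with no difference detected between HD-het and control cells. It had 0.871, 1.01 and 1.28 CPM in control cells and 1.16, 1.46 and 1.20 CPM in HD-het cells, and these ranges overlapped. In HD-homo cells it had 7.76, 12.3 and 13.4 CPM, from 253 to 521 reads. The increase over control cells was 10.6-fold (log2 fold change 3.41, SE 0.235, adjusted p = 2.92e-07 with edgeR), and over HD-het cells it was 8.79-fold (adjusted p = 2.83e-07 with edgeR). The log2 difference between HD-het and control cells was 0.27 with a 95% interval from -0.34 to 0.89 (adjusted p = 0.410). Its chromosomal neighbours Parp9 and Dtx3l passed the test in HD-het cells.

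Zc3hav1, the antiviral RNA-binding protein, had the highest level of the 10 per kilobase of transcript in each line and followed the same pattern with little spread. It had 44.9, 46.1 and 46.9 CPM in control cells, 42.6, 47.2 and 45.3 CPM in HD-het cells and 119, 120 and 124 CPM in HD-homo cells. The HD-het libraries overlapped the control libraries, and the HD-homo libraries lay together well above both. HD-homo cells had 2.63-fold the level of control cells (log2 fold change 1.40, SE 0.0564, adjusted p = 3.58e-09 with edgeR) and 2.69-fold that of HD-het cells (adjusted p = 2.29e-09). The log2 difference between HD-het and control cells was -0.03 with a 95% interval from -0.15 to 0.09 (adjusted p = 0.659). Gene counts do not separate the long and short isoforms of Zc3hav1, which differ in the PARP-like domain.

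**Figure D2:**
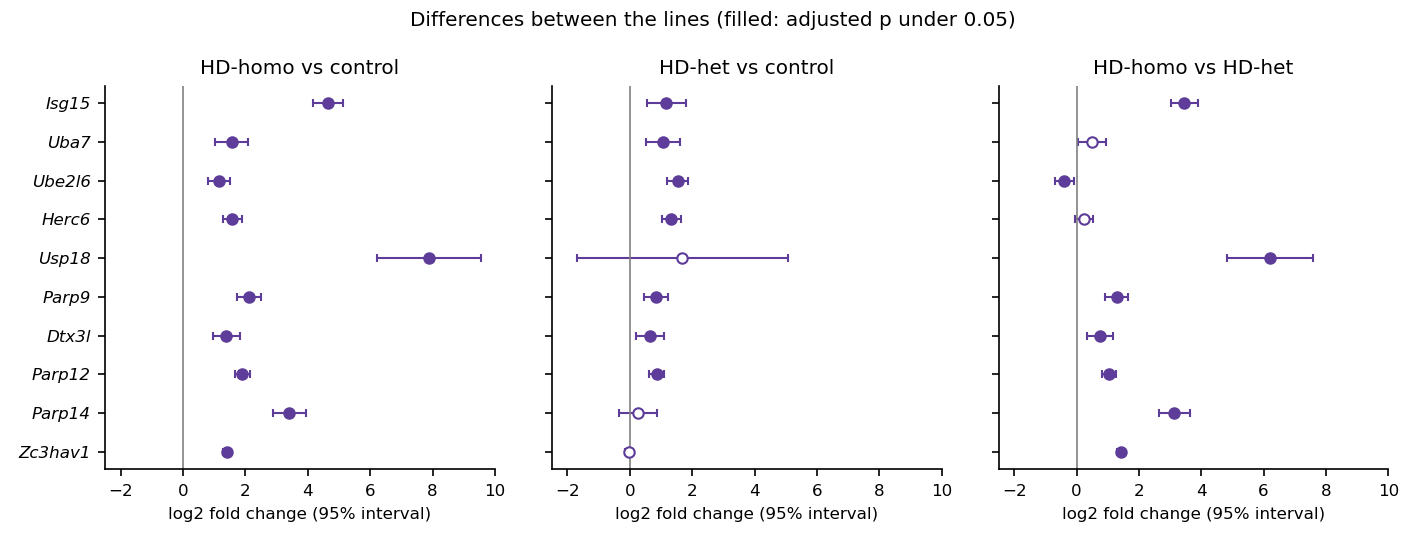
Log2 fold change (horizontal axis) of the 10 genes in each of the 3 comparisons between lines, with 95% intervals from edgeR's quasi-likelihood fit to all 9 libraries. Filled points passed an adjusted p of 0.05. All 10 are filled against control cells in HD-homo cells, Usp18, Parp14 and Zc3hav1 are open in HD-het cells, and Ube2l6 is the member that lies below 0 between the HD lines.

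The members split into patterns that the comparisons show side by side. Isg15, Parp9, Dtx3l and Parp12 passed the test in all 3 comparisons with the order control, HD-het, HD-homo. Parp14 and Zc3hav1 were higher in HD-homo cells than in both other lines, and so was Usp18. Uba7 and Herc6 were higher in both HD lines than in control cells and did not differ between them past the threshold, and Ube2l6 was highest in HD-het cells.

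Within HD-homo cells, replicate 3 had the highest level of 8 of the 10 members, the exceptions being Uba7 and Herc6 with replicate 2. Over all tested genes, replicates 1, 2 and 3 were the highest in 30.7%, 35.8% and 33.6% of genes. The highest HD-homo library exceeded the lowest by 3.70 times for Usp18, 1.82 times for Dtx3l, 1.73 times for Parp14, 1.69 times for Parp9 and 1.51 times for Isg15. The ratio was 1.04 for Zc3hav1, so that the members did not vary alike between replicates. Without HD-homo replicate 3, all 10 members passed the test against control cells, as did 7580 of all tested genes.

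Per kilobase of the GENCODE transcript, the order of the members changed with the line. In control cells Zc3hav1 led with 9.30 CPM per kb, followed by Parp12 with 3.35, Ube2l6 with 2.03, Parp9 with 1.59, Herc6 with 0.675, Dtx3l with 0.636, Isg15 with 0.569, Uba7 with 0.160, Parp14 with 0.142 and Usp18 with 0.0282. The libraries of Ube2l6 overlapped those of Parp9, those of Dtx3l overlapped Isg15, and those of Uba7 overlapped Parp14. In HD-homo cells Isg15 stood second with 14.3 CPM per kb after Zc3hav1 with 24.5, and Usp18 followed Parp12 with 7.54. The libraries of Isg15 overlapped those of Parp12 at 12.5 CPM per kb. Those of Usp18 ran from 3.68 to 13.6 CPM per kb and overlapped Isg15, Parp12, Parp9 at 6.90 CPM per kb, and Ube2l6. Ube2l6 had 4.53, Herc6 2.01, Dtx3l 1.66, Parp14 1.51 and Uba7 0.470 CPM per kb, and the libraries of Herc6, Dtx3l and Parp14 overlapped each other. In HD-het cells Zc3hav1 with 9.11, Parp12 with 6.09 and Ube2l6 with 5.91 CPM per kb led, and the libraries of the last pair overlapped. Parp9 followed with 2.83, Herc6 with 1.71, Isg15 with 1.29, Dtx3l with 0.991, Uba7 with 0.335, Parp14 with 0.171 and Usp18 with 0.0999 CPM per kb, with no overlap between neighbours. The annotated transcript sets this order, and per kilobase of coding sequence Ube2l6 had 6.91 in control, 20.1 in HD-het and 15.4 CPM in HD-homo cells, the highest of the 10 in HD-het cells.

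**Figure D3:**
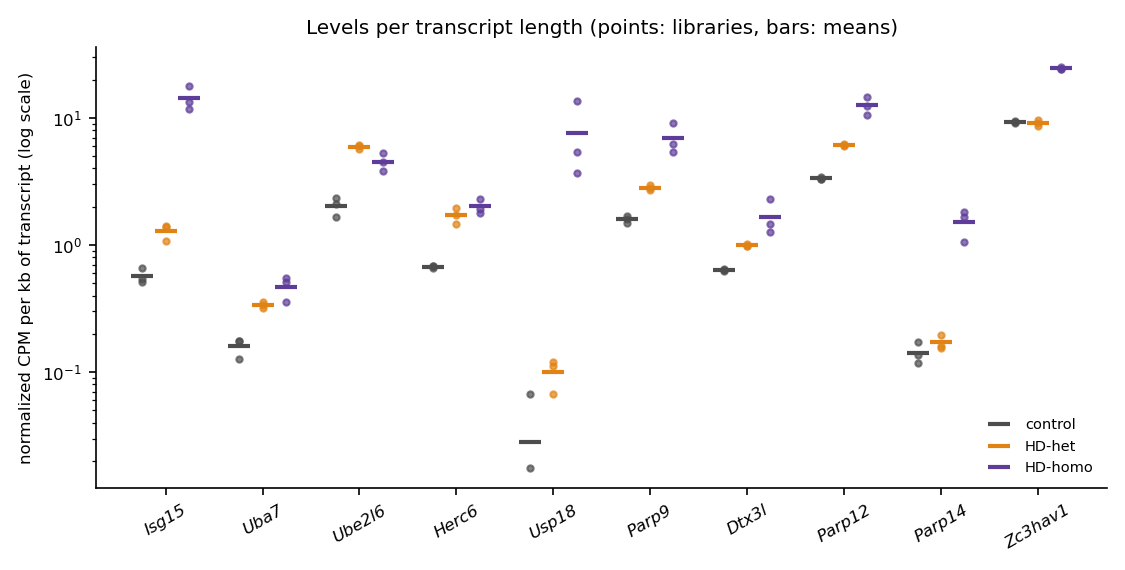
Normalized CPM per kilobase of the GENCODE transcript (log scale) for the 10 genes in the 3 lines. Points are libraries and bars are means, and Usp18 in control replicate 3 had 0 reads and cannot be drawn on this axis. Isg15 rises from the lower part of the plot in control cells to the level of Parp12 in HD-homo cells, and Usp18 rises from the bottom of the plot to a mean near that of Parp9, with 1 library at the level of Parp12.

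Over the 9 libraries, Pearson's r of log2 normalized CPM with Isg15 was 0.982 for Usp18, 0.973 for Parp9, 0.972 for Parp14, 0.967 for Parp12 and 0.965 for Zc3hav1. It was 0.917 for Dtx3l, 0.811 for Uba7, 0.759 for Herc6 and 0.477 for Ube2l6. The libraries form 3 lines, and r mainly describes the differences between them. Among all other tested genes the most similar to Isg15 were Srgap3 (r = 0.9968), B3gnt9 (r = 0.9967), Il1rn (r = 0.9965), Inpp4b (r = 0.9964) and Ucp2 (r = 0.9960). Il1rn, the interleukin-1 receptor antagonist, had a mean of 0.190 CPM in control, 0.721 CPM in HD-het and 35.9 CPM in HD-homo cells. Srgap3 had 27.2, 33.7 and 63.4 CPM in the same order. These r values are descriptions over few libraries that share line and depth.

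Genes of ubiquitin and ubiquitin-like enzymes related to the ISG15 pathway passed the test in both directions. Of 19 tested, 7 were higher, 7 lower and 5 did not pass in HD-homo against control cells, with a median log2 fold change of -0.03, and 29.6% of all tested genes were higher and 28.9% lower. In HD-het cells 3 were higher, 6 lower and 10 did not pass, beside 33.8% and 31.4% of all tested genes. Trim25, an interferon-inducible RING ligase that is itself an ISG15 target and can act as an ISG15 ligase, had the largest increase in HD-homo cells. Its counts were 178, 179 and 159 reads in control cells, fell to 1, 5 and 3 reads in HD-het cells and were 1175, 1320 and 1129 reads in HD-homo cells. Trim25 was thus 6.22-fold higher than control in HD-homo cells (adjusted p = 5.23e-09 with edgeR), while in HD-het cells it was lower, by a log2 fold change of -5.88 (adjusted p = 7.45e-09 with edgeR). The largest decrease in HD-homo cells was that of the ubiquitin protease Usp2 (log2 fold change -0.85, adjusted p = 0.0422 with edgeR). Herc3, a HECT ligase on the same chromosome as Herc6, was lower in HD-homo cells (log2 fold change -0.52, adjusted p = 0.0100) and higher in HD-het cells (2.03, adjusted p = 5.04e-07) with edgeR, unlike Herc6, which rose in both.

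The other 12 PARP genes were tested beside the members. In HD-homo against control cells 6 were higher, 3 lower and 3 did not pass, beside 29.6% and 28.9% of all tested genes, and the median log2 fold change was 0.23. In HD-het cells 4 were higher, 4 lower and 4 did not pass, beside 33.8% and 31.4% of all tested genes, with a median of 0.09. Parp10, a mono-ADP-ribosyltransferase, had the largest increase in HD-homo cells, with 10.4, 8.50 and 15.5 CPM against 2.71, 2.88 and 2.74 CPM in control cells. The log2 fold change of Parp10 was 2.04 in HD-homo (SE 0.215, adjusted p = 9.81e-06 with edgeR) and 0.26 in HD-het cells (SE 0.230, adjusted p = 0.333 with edgeR), where the libraries overlapped the control libraries. Tiparp, a target of the aryl hydrocarbon receptor, had the largest decrease in HD-homo cells (log2 fold change -0.91, adjusted p = 0.000770 with edgeR) and a value of -0.05 in HD-het cells (adjusted p = 0.798). Parp8 was lower in HD-het cells (log2 fold change -1.83, adjusted p = 3.61e-07 with edgeR) and was named after its values were seen.

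**Figure D4:**
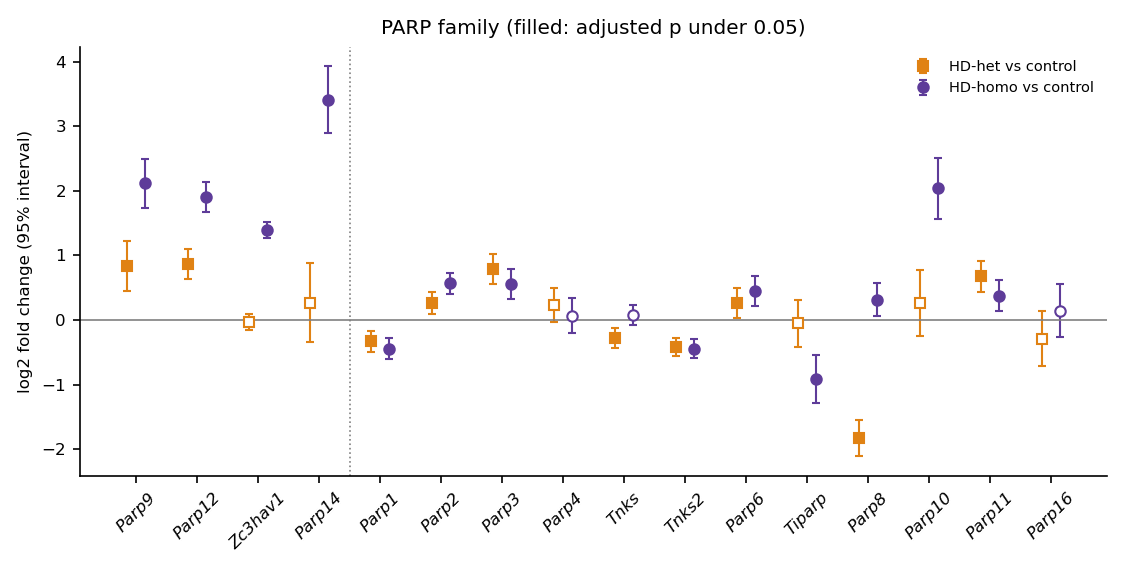
Log2 fold change (vertical axis) with 95% intervals in HD-het (squares) and HD-homo cells (circles) against control cells for the 4 PARP family members described here, left of the dotted line, and the other 12 PARP genes tested. Filled symbols passed an adjusted p of 0.05. Parp10 is the gene right of the line with an HD-homo value near those of the members.

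The interferon receptor and ISGF3 genes were measured beside the members that they are known to induce. Of 10 genes tested, 8 were higher in HD-homo cells than in control cells and 0 were lower, beside 29.6% and 28.9% of all tested genes. For HD-het against control cells the numbers were 8 higher and 2 lower, beside 33.8% and 31.4% of all tested genes. The lower genes were the transcription factor Irf1 (log2 fold change -0.80, adjusted p = 0.000322 with edgeR) and Skp2, a subunit of a ubiquitin ligase (log2 fold change -0.90, adjusted p = 1.43e-07 with edgeR), both named after their values were seen. Stat2 and Irf9, subunits of ISGF3, had log2 fold changes of 1.79 and 2.29 in HD-homo cells, with adjusted p values of 1.96e-08 and 7.11e-07 with edgeR, and of 0.29 and 0.81 in HD-het cells, with adjusted p values of 0.0164 and 0.00209. The receptor chain Ifnar1 had log2 fold changes of 0.12 in HD-homo (adjusted p = 0.208) and 0.55 in HD-het cells (adjusted p = 7.88e-05), and Ifnar2 had 0.45 (adjusted p = 0.000377) and 0.28 (adjusted p = 0.00613), with edgeR. Irf7 had the largest increase in HD-homo cells (log2 fold change 6.92, adjusted p = 2.87e-07), from a mean of 0.106 CPM in control cells, 0.995 CPM in HD-het cells and 13.2 CPM in HD-homo cells.

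Interferon mRNA itself was near or below the limit of detection. Of 19 type I, II and III interferon genes in the table, 16 had 0 reads in all 9 libraries, and none passed the filter on low counts. Ifne had 1, 1 and 2 reads in control cells, 0, 0 and 1 in HD-het cells and 0, 1 and 0 in HD-homo cells. Ifnk had 2 reads in control replicate 3 and 1 in HD-het replicate 1, and Ifnab had 1 read in HD-het replicate 2. Up to 3 reads per library is within the limit that a count of 0 allows, so a difference in interferon mRNA was not detectable at this depth.

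Markers of other cell types were counted beside these results. The summed level of 5 neuronal markers was 92.8 to 113 CPM in control, 106 to 114 CPM in HD-het and 88.8 to 113 CPM in HD-homo cells, most of it Map2 and Tubb3, while Rbfox3, Snap25 and Syt1 had at most 2 reads in a library. The 8 markers of striatal projection neurons summed to at most 4.15 CPM, and Drd1 had 0 reads in all libraries. These markers thus do not show the cells to be projection neurons, and the striatal origin of the lines was not tested. The 8 microglial and leukocyte markers summed to 14.3 to 18.0 CPM in control, 45.8 to 57.8 CPM in HD-het and 15.7 to 17.0 CPM in HD-homo cells, most of it Tmem119, and Aif1 had 0 reads in all libraries. Within this list Csf1r had a mean of 0.544 CPM in control, 0.666 CPM in HD-het and 2.04 CPM in HD-homo cells (HD-homo against control, log2 fold change 1.89, adjusted p = 3.80e-05 with edgeR), and P2ry12 had at most 18 reads in a library and was lower in HD-homo than control cells (log2 fold change -3.16, adjusted p = 0.00119 with edgeR). The part of these markers in the results on the members was not tested. The 4 astrocyte markers summed to 2.46 to 2.67, 0.620 to 1.23 and 12.5 to 17.8 CPM, and the 4 oligodendrocyte markers to 0.541 to 0.902, 1.27 to 1.52 and 1.47 to 2.45 CPM, in the same order of lines. The astrocyte sum was highest in HD-homo cells through Slc1a3 alone. Gfap and Aldh1l1 had at most 6 and 7 reads in a library and went the other way. Gfap had means of 0.170, 0.148 and 0.0380 CPM and Aldh1l1 of 0.160, 0.0691 and 0.0278 CPM, in the same order of lines. Aqp4 had at most 1 read in a library. The oligodendrocyte sums of the HD lines overlapped, and the part of either list in the results on the members was not tested.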

How the data were processed

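The authors selected poly(A) RNA and made directional libraries, and they deposited raw read counts per gene symbol for 9 libraries, with no normalization. The submitters' processing notes name cutadapt, Bowtie 1.1.2, RSEM 1.3.0, DESeq2 and the builds GRCm38.p5 and mm10. The annotation and the strand setting of the counting are not given in the sources used here. Totals ran from 29507665 to 41197931 counts per library. Of 36410 genes listed, 26 carry a date where a symbol should stand, and none of these is a member.

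The tests used edgeR 4.0.16 in R 4.3.3. The filter on low counts was filterByExpr (minimum count 10, lines as groups), and the kept genes were scaled by TMM and fitted with 1 mean per line over all 9 libraries, followed by the two-sided quasi-likelihood test and Benjamini-Hochberg adjustment over all tested genes. Folds are ratios of mean normalized CPM, log2 fold changes are the fitted ones, and standard errors follow from the F statistic. Levels per length used GENCODE M21 transcripts on GRCm38. Promoters were taken from RefSeq on GRCm38.p6.

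Although the rule for the members reads no level, the members, the gene lists and the tests were chosen with earlier results of these data known. The text names all members, from each list the tested gene past the threshold with the largest increase and decrease in HD-homo against control cells, the receptor and ISGF3 genes (1 of which is not reported here), every interferon with a read, and the 5 genes most correlated with Isg15. Cell type markers were summed. In simulated data for HD-homo against control cells, 98 of 100 genes changed 2-fold and 100 of 100 changed 4-fold were called among 13303. Of the 210 genes called in that comparison, 5.71% were false. In the simulated comparison of HD-het against control cells, where no gene was changed, 0 genes were called. The simulation changed 200 genes, whereas 7910 passed in the data, so its error rate need not hold for these tests. Alternatives were DESeq2 1.42.0, other scalings, filters, prior counts and sample sets, a block on the replicate number and leaving out each library. Levels per coding length from GENCODE were added after seeing the data.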

Additional observations from a re-analysis of the deposited data

How the results depend on the processing

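No member that passed the test changed direction under the alternatives run. The log2 fold change of Zc3hav1 in HD-het against control cells, which did not pass, was -0.0299 and turned to 0.00976 without HD-het replicate 1. An added limit of 1 on the size of the log2 fold change left 2574 of 7910 genes in HD-homo against control cells, 2490 of 8797 in HD-het against control cells and 3285 of 9666 between the HD lines, and 4 of the 7 members in HD-het cells. Over the other 16 settings, 9 to 10 members passed in HD-homo cells, 7 in HD-het cells and 7 to 9 between the HD lines, with 6750 to 8372, 7762 to 9303 and 8354 to 10033 genes in all. Usp18 has no value with at least 10 counts in every library, because its control libraries had fewer. Among members, the calls that changed were those of Uba7 and Ube2l6 between the HD lines. With library totals only, counts in the gene lists moved by at most 1 gene. The alternative with RefSeq protein lengths was not run.

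The replicate number was not taken to pair the libraries, because the labels tie it to no shared culture or day and the correlation of deviations between same-numbered libraries, from -0.00532 to 0.145, was not over 0.1 in every pair of any comparison. In 8 of 9 cases it was highest for the same number, a hint from the data that the numbers may mark something shared. A replicate block gave 10, 7 and 9 members and 8372, 9160 and 9938 genes in the 3 comparisons, where the added member was Uba7 (adjusted p = 0.0352 with edgeR). Members with few reads were limited by depth, above all Usp18 in control and HD-het cells.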

Other observations

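Genes that remove ADP-ribose or bind the products of the members were measured as well. Of 8 tested genes for ADP-ribose removal, 1 was higher, 4 were lower and 3 did not pass in HD-homo against control cells. Among all tested genes, 29.6% were higher and 28.9% lower in this comparison. Nudt9, an ADP-ribose pyrophosphatase, had the largest increase (log2 fold change 0.94, adjusted p = 1.16e-06 with edgeR). Macrod2, a macrodomain hydrolase, had the largest decrease (log2 fold change -1.44, adjusted p = 0.000345 with edgeR), and its mean level was 0.829 CPM in control, 7.46 CPM in HD-het and 0.302 CPM in HD-homo cells. Of 4 tested relatives of Dtx3l and Zc3hav1, 0 were higher and 2 were lower in HD-homo against control cells, beside the same shares of all tested genes. The largest decrease was in Dtx4 (log2 fold change -1.81, adjusted p = 2.04e-08 with edgeR), a Deltex ligase.

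Of 9 tested partners of ZC3HAV1 or ISG15, 1 was higher, 1 was lower and 7 did not pass in HD-homo against control cells. Beside this, 29.6% of all tested genes were higher and 28.9% lower. The RNA exosome subunit Exosc3 had a log2 fold change of 0.27 (adjusted p = 0.00448) and the integrin Itgb2, a chain of the receptor for secreted ISG15, had -2.22 (adjusted p = 1.72e-05), with edgeR. Itgal, the other chain, had at most 3 reads in a library. Gm9706, listed among the near copies, had 0 reads in all 9 libraries.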
